A study of Mus musculus with 6 samples.

Results

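The genes described here are those that fill and clothe the red cell: the adult globin genes Hba-a1, Hba-a2, Hbb-bt and Hbb-bs, the transcription factor gene Klf1, the haem synthesis gene Alas2, the membrane protein gene Slc4a1 and the receptor gene Epor. They were taken from a list of 9 symbols, of which 8 matched among the 31053 gene identifiers of the tables, and the ninth, Ahsp, was not analysed here. All cells came from lungs of wild-type C57BL6 fetuses at E17. After enzymatic dissociation and freezing they were grown on dilute Matrigel, a basement membrane extract, in a medium for blood stem and progenitor cells that the labels list as holding mTPO (thrombopoietin), IL6, SCF, FGF, VEGF and Flt3. Erythropoietin, the main growth factor of red cell precursors, is not among the additions the labels name. On days 4, 5 and 6 the floating cells (suspension) and the attached cells were harvested apart, and the attached cells (adherent) were detached with accutase and sorted for live, VE-cadherin positive cells, whereas no sort is described for the floating ones. There was 1 library per fraction and day, 6 in all, and the labels do not say whether days or fractions came from separate cultures or litters, so p-values reflect the spread among these libraries alone.

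Red cell precursors depend on erythropoietin, which binds its receptor Epor and signals through the kinase Jak2 and Stat5. Gata1 and Klf1 then switch on the genes for globins, haem synthesis and the membrane. Alas2 performs the opening step of haem synthesis in erythroid cells, and haem and the globin chains make haemoglobin, a tetramer of alpha and beta chains. Slc4a1 (band 3) exchanges chloride for bicarbonate and anchors the membrane skeleton. In the fetal mouse, red cells form mainly in the liver and circulate through the lung, and they lose their nucleus but keep globin mRNA for some time afterwards.

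The promoters of the genes on which the results turn are shown first, because red cell genes are known for a small set of short DNA words near their start. RefSeq (GRCm38.p6) gave a start for 7 of the 8 genes, all but Slc4a1. The sequences are stretches before that start that lie outside annotated exons, read 5′ to 3′ on the gene's strand, and capitals mark matches to the motifs searched. They are Hba-a2 at chr11:32296242-32296488 (plus strand), Hbb-bs at chr7:103827929-103828011 (minus strand), Klf1 at chr8:84901732-84901927 (plus strand) and Epor at chr9:21963577-21963826 (minus strand).
Hba-a2: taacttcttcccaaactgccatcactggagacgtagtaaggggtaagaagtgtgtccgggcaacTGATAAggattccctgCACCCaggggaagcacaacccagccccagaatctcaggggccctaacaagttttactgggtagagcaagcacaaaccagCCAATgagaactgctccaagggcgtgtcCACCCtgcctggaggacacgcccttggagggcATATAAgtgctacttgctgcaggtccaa
Hbb-bs: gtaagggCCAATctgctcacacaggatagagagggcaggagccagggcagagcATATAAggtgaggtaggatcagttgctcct
Klf1: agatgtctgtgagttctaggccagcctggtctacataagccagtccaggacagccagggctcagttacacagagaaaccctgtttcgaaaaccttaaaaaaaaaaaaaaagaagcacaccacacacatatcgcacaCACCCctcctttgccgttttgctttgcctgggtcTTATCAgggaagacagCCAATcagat
Epor: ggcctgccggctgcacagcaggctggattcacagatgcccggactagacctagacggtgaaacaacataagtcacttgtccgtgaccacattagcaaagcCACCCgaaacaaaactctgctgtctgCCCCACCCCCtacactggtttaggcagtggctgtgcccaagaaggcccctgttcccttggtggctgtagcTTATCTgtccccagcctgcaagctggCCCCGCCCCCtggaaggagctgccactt

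The motifs were the GATA words AGATAA or AGATAG, those with another opening letter, TGATAA or TGATAG, the words CACCC and CCNCNCCC (which can overlap each other, the second being close to the known site of Klf1), and CCAAT, all on both strands, and ATATAA on the gene's strand. Within the 250 bases before the start, bases in annotated exons included, a GATA word stood in 6 of the 7 promoters and in 26.5% of 32851 promoters in the table. CACCC stood in 7 of 7 and in 52.0% of all promoters, and CCNCNCCC in 4 of 7 and in 45.9%. CCAAT stood in 5 of 7 and in 33.8%, and ATATAA in 4 of 7, the globin genes, and in 5.57%. In Hba-a2 the match TGATAA began at position -186, CCAAT at -91 and ATATAA at -31, counted from the start. In Klf1 the match TTATCA began at -80 and CCAAT at -64, and Epor had TTATCT at -54 and no ATATAA in this window. A match is a description of letters and not of binding. The beta globin genes differed in the stretch around CCAAT, shown here because their shares of the beta globin counts are compared further on. The 30 bases are chr7:103827995-103828024 for Hbb-bs and chr7:103813989-103814018 for Hbb-bt, both on the minus strand. Unlike the sequences above, both stretches lie partly within annotated exons.
Hbb-bs: gagCCACACCCtggtaagggCCAATctgct
Hbb-bt: gggtaaCACCCtggcATTGGCCAATctgct

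Hbb-bs held CCACACCC from -93 to -86 in this stretch, where Hbb-bt held CACCC without the longer word. Upstream of it Hbb-bt had CCTCACCC from -107 to -100. Over the bases before the start, 178 of 243 aligned positions matched between these 2 genes (73.3%), and over their transcripts 580 of 626 (92.7%). No stretch of 50 bases in the last 200 bases of either transcript was shared. Over the whole transcripts 65.8% of the 50-base stretches of Hbb-bs and 58.3% of those of Hbb-bt also occur in the other gene. Where along the transcripts the reads lay was not tested. The alpha globin genes are much closer, with a run of 297 identical bases in promoter windows of 300 and with 537 of 538 aligned transcript positions matching. Of the 50-base stretches in the last 200 bases of Hba-a1 and Hba-a2, 66.9% and 56.3% also occur in the other gene. Reads from shared stretches map to several places and were not counted for a gene, so alpha globin levels lack those reads and the split between Hba-a1 and Hba-a2 is uncertain.

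Counts in these tables are reads summed over a whole library, without correction for molecular identifiers and without a cell axis. Sense-strand gene counts per library lay between 36451255 and 57784974, and reads that mapped to several places made up 15.0% to 16.5% of mapped reads in suspension and 19.8% to 24.6% in adherent libraries. Levels are given as CPM, for which each count was divided by the TMM-adjusted depth of its library, and intervals and floors cover counting error only. A gene with 0 counts in a library could have had up to 3 counts there, which corresponds to between 0.0594 and 0.0756 CPM. Among marker genes of other cell types, 6 endothelial genes summed to between 428 and 1117 CPM in adherent and between 5.92 and 8.94 CPM in suspension libraries, the direction the VE-cadherin sort selects for. The 9 neutrophil genes summed to between 25438 and 77681 CPM in suspension and to between 225 and 978 CPM in adherent libraries.

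The 4 adult globin genes were far higher in suspension than in adherent cells on every day, but they were a minor part of any library, and the embryonic globin genes had 1 count in all. In suspension the globin level was lowest in the library of day 5, while Klf1 and Epor, the regulator and the receptor, had their lowest values on day 4. Each of the 8 genes on the red cell list that were measured had its highest suspension value on day 6. With sums over libraries, fewer red cells and less RNA per red cell cannot be told apart.

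Hbb-bs (ENSMUSG00000052305, chromosome 7, 103826534 to 103828096, GRCm38) encodes an adult beta chain and had suspension levels of 80.1, 9.44 and 108 CPM on days 4, 5 and 6 (3309, 396 and 5452 counts). In adherent cells it was at 0.0692, 0.579 and 0 CPM, from 3, 23 and 0 counts. The fractions did not overlap, with the lowest suspension library above the highest adherent one. Its log2 ratio of suspension over adherent was 8.28 ± 1.38 (SE; adjusted p = 0.00326), by the quasi-likelihood test of edgeR, Benjamini-Hochberg adjusted over all 14912 genes tested, as is every adjusted p below. Hbb-bt, the other adult beta globin gene (chromosome 7, 103812524 to 103813996), was at 36.5, 14.7 and 54.7 CPM in suspension. In adherent cells it had 0, 37 and 0 counts, so that its whole adherent signal lay in the library of day 5, at 0.932 CPM. Its log2 ratio was 6.86 ± 1.27 (adjusted p = 0.00468).

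Hba-a1 (chromosome 11, 32283511 to 32284465) had suspension levels of 26.6, 4.77 and 40.2 CPM on days 4, 5 and 6 and adherent levels of 0.369, 0.302 and 0 CPM (16, 12 and 0 counts). Hba-a2 (chromosome 11, 32296489 to 32297298) was at 12.3, 1.501 and 16.1 CPM in suspension and had 0, 7 and 0 counts in adherent cells. Both alpha globin genes thus had their lowest suspension value on day 5, still above every adherent library. Their log2 ratios were 6.73 ± 1.14 (adjusted p = 0.00345) and 7.40 ± 1.39 (adjusted p = 0.00498). Of the 98 adherent globin counts, 79 came from the library of day 5. Without that library the fitted log2 ratios of Hba-a2, Hbb-bt and Hbb-bs were 11.78, 13.60 and 10.77, of which the first pair rest on 0 adherent counts and are no measure of size. With any other library left out the ratios were 6.09 to 7.32 for Hba-a1, 6.82 to 7.87 for Hba-a2, 6.27 to 7.19 for Hbb-bt and 7.69 to 8.75 for Hbb-bs. The lowest of these came without the suspension library of day 6 (Hba-a1), the adherent library of day 4 (Hba-a2 and Hbb-bt) and the adherent library of day 6 (Hbb-bs).

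**Figure D1:**
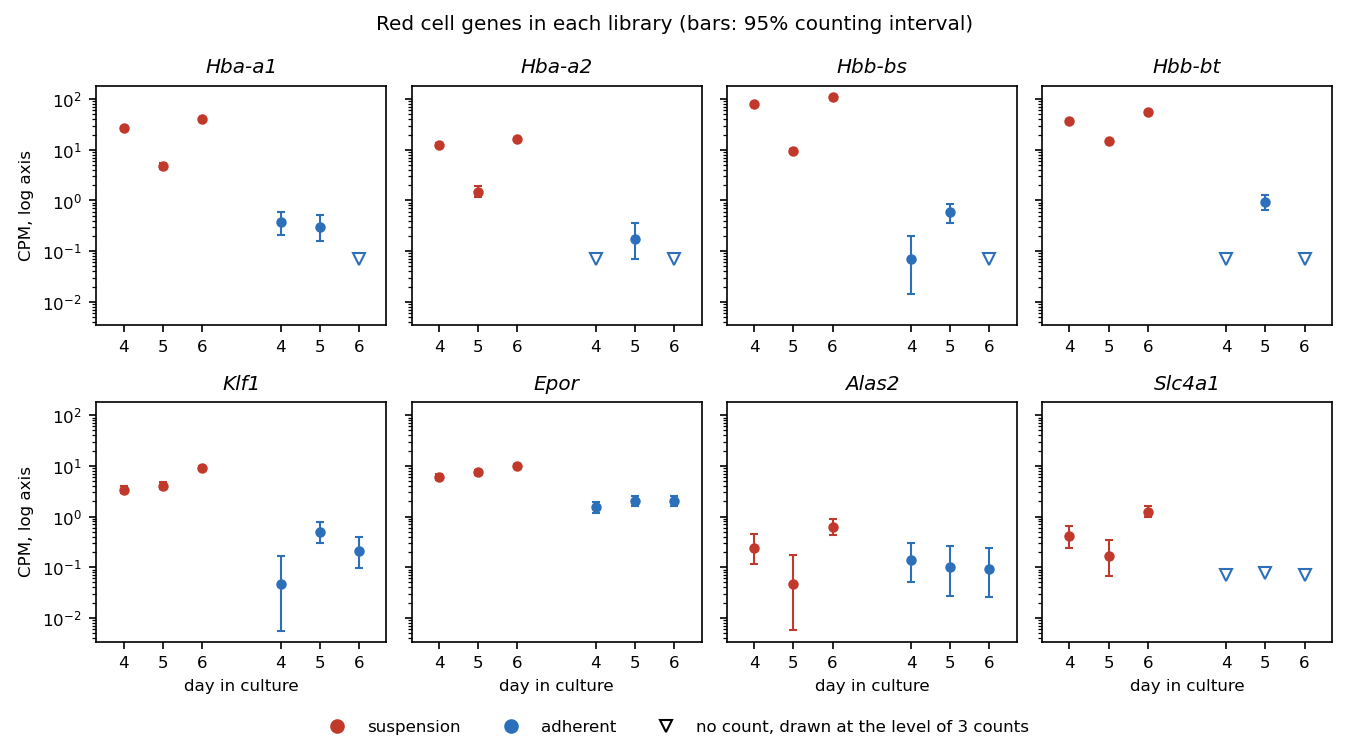
CPM (log axis) of the 8 red cell genes by fraction and day in culture, 1 point per library with its 95% counting interval, and open triangles at the level of 3 counts where a library had 0. The globin genes lie well above the adherent libraries on every day and have their lowest suspension value on day 5, while Klf1 and Epor have theirs on day 4.

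Klf1 (chromosome 8, 84901928 to 84905291), the factor that activates the adult beta globin gene, was at 3.41, 4.05 and 9.03 CPM in suspension (141, 170 and 456 counts). In adherent cells it was at 0.0461, 0.504 and 0.210 CPM (2, 20 and 9 counts), so that day 5 was its highest adherent library, as it was for 3 of the globin genes. The fractions did not overlap, and the log2 ratio was 4.44 ± 0.79 (adjusted p = 0.00413), or 5.40 with the day 5 adherent library left out and 3.87 with the day 6 suspension library left out. Epor (chromosome 9, 21958897 to 21963506) had suspension levels of 6.10, 7.46 and 10.1 CPM and adherent levels of 1.55, 2.04 and 2.03 CPM, from 67 to 87 counts there. Its log2 ratio of 2.07 ± 0.26 (adjusted p = 0.00125) was the smallest among the 6 genes tested, and of these 6 it was the only one with more than 37 counts in an adherent library. On matched days Epor was 3.95-fold (95% counting interval 3.004 to 5.25), 3.66-fold (2.85 to 4.73) and 4.97-fold (3.95 to 6.32) higher in suspension.

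Alas2 (chromosome X, 150547375 to 150570638) and Slc4a1 (chromosome 11, 102348824 to 102366203) were near the limit of detection and did not pass the filter on low counts. Alas2 had 10, 2 and 32 counts in suspension and 6, 4 and 4 in adherent cells, and its fractions overlapped, since the suspension library of day 5 was below all adherent ones. Without the filter its log2 ratio was 1.47 ± 0.89 (adjusted p = 0.236). Its gene overlaps Apex2 on the opposite strand. Over all libraries it had more antisense than sense counts (111 and 58), though not in the suspension libraries of days 4 and 6. Slc4a1 had 17, 7 and 63 counts in suspension and 0 in each adherent library. Against a floor of 3 counts per library it was at least 8.51-fold higher in suspension.

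In 7 of the 8 genes all suspension libraries lay above all adherent ones, as they did in 33.4% of all genes tested (34.4% had them below), and the exception was Alas2. All 6 genes that passed the filter were called higher, against 27.1% of all genes tested (29.7% were called lower). The globin genes and Klf1 passed the filter through their suspension libraries alone, so they had to differ, and the count says nothing about red cell genes as a group. Over the alternatives that tested each of these 6 genes, the adjusted p lay between 1.55e-11 and 0.0190. With at least 10 CPM required in 3 libraries, Hbb-bt alone was tested, and it was called higher.

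Measured without a model, the 4 globin genes took 0.0122% ± 0.00839 of gene counts in suspension and 8.85e-05% ± 0.000114 in adherent libraries (SD, n = 3). The exact two-sided permutation test gave p = 0.1, the smallest value that 3 libraries against 3 allow. The single libraries had 6423, 1278 and 11054 globin counts in suspension and 19, 79 and 0 in adherent cells. Globin levels were therefore 355-fold (95% counting interval 227 to 590) higher in suspension on day 4 and 15.3-fold (12.2 to 19.5) on day 5. On day 6 they were 3132-fold higher with the adherent library set to the floor of 3 counts, and the lower 95% counting limit was 2547-fold. The gap between the fractions was smallest on day 5, when the suspension level was at its lowest and the adherent level at its highest.

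**Figure D2:**
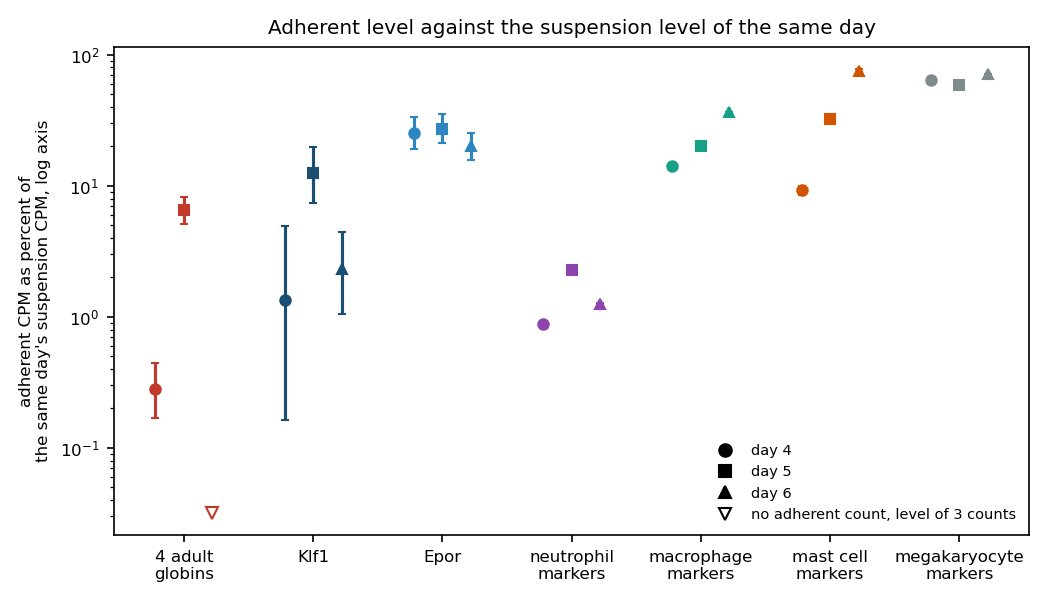
Adherent level as a percent of the suspension level of the same day (log axis), for the 4 globin genes summed, Klf1, Epor and the summed markers of 4 other blood cell types, with 95% counting intervals. The globin genes lie at 0.282% on day 4 and 6.53% on day 5, below Epor at 25.3% and 27.4%, and day 6 has no adherent globin count.

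The small adherent signal was set beside that of other blood cells in the same libraries. On days 4, 5 and 6 the adherent level of the globin genes was 0.282%, 6.53% and 0% of the suspension level of the same day, where 3 adherent counts on day 6 would give 0.0319%. Klf1 stood at 1.35%, 12.4% and 2.32%. The summed neutrophil markers stood at 0.885%, 2.29% and 1.26% (9 of 9 genes higher in suspension), and the macrophage markers at 14.2%, 20.0% and 36.7% (6 of 8 higher, 8 with the day as a block). Relative to suspension, globin, Klf1 and neutrophil markers were all highest in the adherent cells of day 5, whereas macrophage markers were highest there on day 6. In CPM the adherent neutrophil sum was 225, 749 and 978 on days 4, 5 and 6, and so highest on day 6. Mast cell markers, with 1 of 6 genes higher (Mcpt4), stood at 9.23%, 32.2% and 75.5%, and megakaryocyte markers, with 1 of 5 tested higher (Gp9; 2 with the day as a block), at 64.5%, 59.2% and 70.8%. None of these lists had a defining marker at 0 in all libraries, and their part in the adherent globin signal was not tested. Fibroblast markers (5 of 5 genes) and endothelial markers (6 of 6) were lower in suspension, as were 2 of 5 epithelial markers, Krt8 and Epcam (5 of 5 with the day as a block).

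Within the suspension cells the red cell genes did not share a course over the days. From day 4 to day 5 Hbb-bs was 8.49-fold lower, Hba-a2 8.19-fold, Hba-a1 5.59-fold and Hbb-bt 2.47-fold. From day 5 to day 6 the same genes were 11.4-, 10.7-, 8.43- and 3.71-fold higher. The below-filter genes had their lowest value on day 5 too, with 2 counts for Alas2 and 7 for Slc4a1. Klf1 did not follow, at 1.19 times its day 4 level on day 5, nor did Epor, at 1.22 times. With 1 library per day these are values without a replicate, and no test of a single day was possible.

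**Figure D3:**
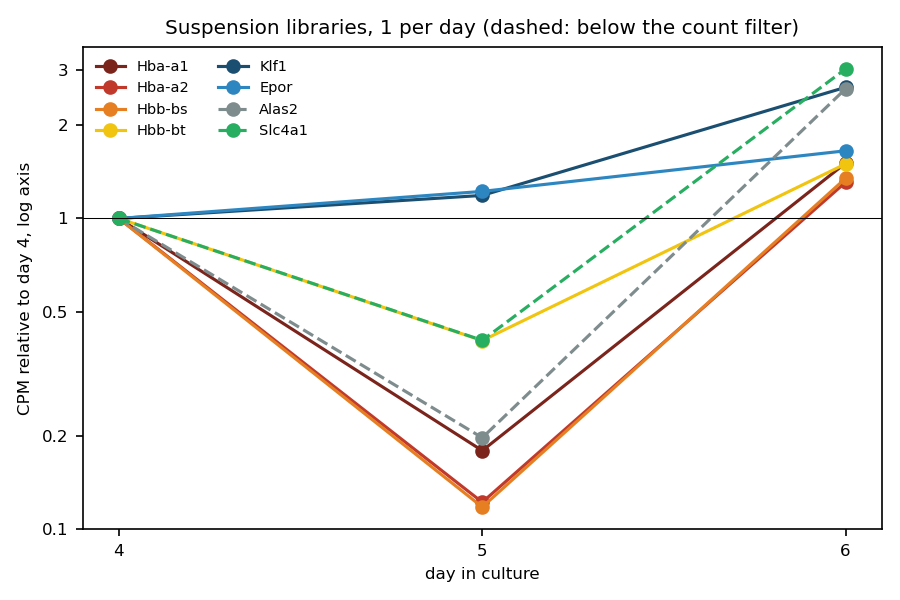
Suspension CPM relative to day 4 (log axis) on days 4, 5 and 6 for the 8 red cell genes, 1 library per day, with dashed lines for Alas2 and Slc4a1, which were below the count filter. The globin lines lie on day 5 between 0.118 (Hbb-bs) and 0.404 (Hbb-bt) of day 4 and above 1 on day 6, whereas Klf1 and Epor lie above 1 on both later days.

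A day 5 level below 50% of that on both other days was uncommon. It was seen in 195 of the 14912 genes tested (1.31%), among them the 4 globin genes, and a lowest value on day 5 of any size in 24.2%. Other genes of red cell precursors, chosen here after their values were seen, stayed closer to their level. Gata1, the erythroid transcription factor, was at 2.25, 3.41 and 4.32 CPM on days 4, 5 and 6, and Rhag, an ammonia channel of the red cell membrane, at 2.40, 2.74 and 5.15 CPM. Of the macrophage markers 4 of 8 were lowest on day 5, none of them below 50% of both other days, and no neutrophil, megakaryocyte or mast cell marker tested was lowest on that day. With 1 suspension library per day, the day and the library cannot be told apart.

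The number of globin reads for each read of the regulator also differed between the days. There were 45.6 globin counts for each Klf1 count on day 4 (95% counting interval 38.6 to 54.2), 7.52 on day 5 (6.40 to 8.87) and 24.2 on day 6 (22.1 to 26.7). The 3 intervals do not overlap. Klf1 counts for each Epor count were 0.560 (0.452 to 0.690), 0.543 (0.448 to 0.657) and 0.896 (0.788 to 1.02), so that days 4 and 5 did not differ beyond counting error and the library of day 6 was higher. The intervals take each read as independent, although reads were not corrected for molecular identifiers, and there was 1 library per day.

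A straight line over days 4 to 6 found no member called. In the slope per day within suspension, 0 of the 6 genes passed edgeR's quasi-likelihood test and 0 passed DESeq2's Wald test, where edgeR called 0.0939% of all genes rising and 0.402% falling. At an unadjusted p under 0.05 edgeR had 1 gene, Epor, with a slope of 0.36 ± 0.13 log2 per day (SE; adjusted p = 0.262, n = 3 libraries, higher on each later day). Klf1 had 0.71 ± 0.38 (adjusted p = 0.425), and the globin genes had between 0.20 and 0.30 (adjusted p between 0.829 and 0.913). For the globin genes the sign of the slope was set by 1 library, since without the suspension library of day 6 it lay between -3.08 and -1.30. The difference between the slopes of the fractions also gave 0 calls of 6 (edgeR 0 at an unadjusted p under 0.05, DESeq2 0), where 0.516% of all genes were called.

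Which beta globin gene supplied the reads also differed between the days. Hbb-bt made up 31.3% of beta globin counts in suspension on day 4 (95% Wilson interval 29.98% to 32.6%), 61.0% on day 5 (57.9% to 63.9%) and 33.6% on day 6 (32.6% to 34.6%). In the adherent library of day 5 the share was 61.7% (49.0% to 72.9%), from 37 of 60 counts. The libraries of day 5 thus had close shares in both fractions, with overlapping intervals, and both lay above those of the suspension cells of days 4 and 6. The Wilson intervals, too, take each read as independent. On day 4 the adherent cells had 3 beta globin counts, all of Hbb-bs, and on day 6 they had none.

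**Figure D4:**
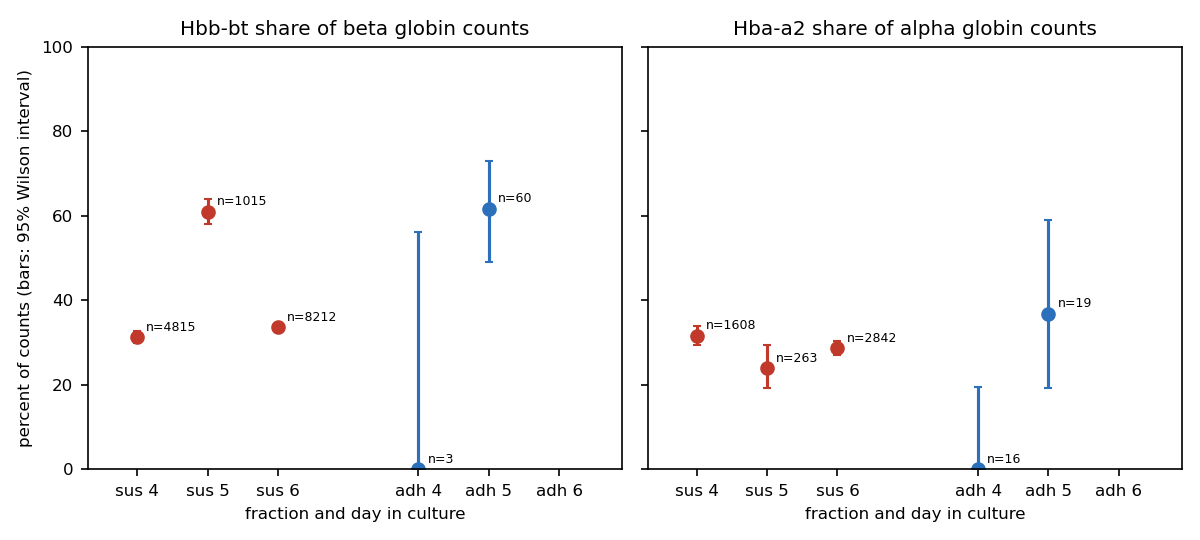
Share of Hbb-bt in beta globin counts and of Hba-a2 in uniquely mapped alpha globin counts, in percent, by fraction and day, 1 point per library with its 95% Wilson interval. Hbb-bt stands near 61% on day 5 in both fractions and near 32% in the suspension cells of days 4 and 6, while the Hba-a2 share varies less in suspension.

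The alpha globin split varied less, within the limit that shared reads set. Hba-a2 made up 31.6% (29.4% to 33.9%), 24.0% (19.2% to 29.5%) and 28.6% (26.97% to 30.3%) of alpha globin counts in suspension on days 4, 5 and 6. Alpha globin made up 25.0%, 20.6% and 25.7% of all globin counts in suspension and 24.1% in the adherent cells of day 5 (15.97% to 34.5%). The adherent library of day 4 stood apart, with 16 of its 19 globin counts from Hba-a1 (84.2% alpha, 62.4% to 94.5%). Embryonic globin genes were practically absent: Hba-x had 1 count, in the suspension library of day 5, and Hbb-y, Hbb-bh1 and Hbb-bh2 had 0 counts in all 6 libraries.

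The other genes of the red cell programme went both ways, with more of them called higher than lower in suspension in each of the 7 lists tested. Over all genes tested 27.1% were called higher and 29.7% lower, and the lists were not tested against these shares. In some alternatives the balance within a list differed. Haem synthesis had more lower than higher when scaled by library totals. Erythropoietin signalling had 1 higher and 2 lower in the test against a 2-fold difference. With at least 10 CPM in 3 libraries, erythropoietin signalling (3 and 3), membrane and skeleton (3 and 3) and late maturation (2 and 2) were tied. Genes named below for their lists are the 2 with the highest CPM among those called, and the others were chosen after their values were seen. Several of the latter, such as Gata1, Gfi1b, Rhag, Rhd, Ermap, Sptb, Hemgn, Car1 and Pklr, passed the filter through their suspension libraries alone. They had to differ, so their calls say nothing about red cell genes as a group, and the counts of higher genes include them. Of 14 erythroid transcription factor genes 8 were higher and 1, Ldb1, lower in suspension (0 lower when the day 5 suspension library, or the day 5 or day 6 adherent one, was left out), with a median log2 ratio of 1.01, where the median of all genes was -0.0025. Gata1, the master regulator of erythroid genes, was at 3.33 ± 1.03 against 0.118 ± 0.120 CPM (SD, n = 3; adjusted p = 0.00189). Gfi1b, a repressor of erythroid and megakaryocytic cells, had 395 counts in suspension and 1 in adherent libraries, a ratio of 372 with a counting interval of 66.4 to 14730. Nfe2, which takes part in globin and platelet gene control, and Myb, a factor of progenitors, were at 5.47 ± 0.65 and 5.01 ± 0.39 log2. Klf13, a relative of Klf1, was at 190 against 88.6 CPM, and Lmo2, the bridge of the Gata1 and Tal1 complex, at 0.91 ± 0.28 log2. Lmo2 did not pass when any 1 suspension library or the day 5 adherent library was left out (adjusted p between 0.0518 and 0.0805), nor with library totals in place of TMM (0.68 log2, adjusted p = 0.0604). Gata2 was at 0.32 log2 and did not pass.

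Genes of haem synthesis did not lean one way. Of 12 tested, 5 were higher (among them Alas1, Tmem14c, Abcb10 and Slc25a38) and 2 lower (Urod and Slc25a37), with a median of 0.06. That count depended on the libraries, at 3 higher and 1 lower when the day 4 or day 5 suspension library was left out, and 3 and 0 when the day 5 adherent library was. Scaling by library totals turned the balance to 2 higher and 3 lower, and with the day as a block 1 was lower, since Slc25a37 did not pass (adjusted p = 0.0961). Alas1, the form of the opening enzyme found in all tissues, was at 164 ± 12.9 against 38.5 ± 8.37 CPM (SD, n = 3; log2 ratio 2.09). Tmem14c, a mitochondrial protein needed for a late step of haem synthesis, was at 1.11 ± 0.13 log2. Of 7 iron uptake genes 4 were higher (Tfrc, Tfr2, Steap3 and Aco1) and 0 lower (median 0.50). Tfrc, the transferrin receptor that feeds iron to red cell precursors and dividing cells, was at 92.6 against 32.0 CPM, and Tfr2, which binds Epor in erythroid cells, at 3.14 ± 0.61 log2. Aco1, an iron sensor, was at 0.39 ± 0.10 log2 and lost its call when the day 5 or day 6 suspension library, or the day 5 adherent one, was left out (adjusted p between 0.0702 and 0.106), with library totals in place of TMM (0.15 log2, adjusted p = 0.260) and with at least 10 CPM in 3 libraries (0.25 log2, adjusted p = 0.0765).

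Of the membrane and skeleton genes 13 of 22 tested were higher and 4 lower (median 1.47). Ank1 (ankyrin) and Add2 (an adducin chain), of the skeleton, were at 0.62 and 1.24 log2 and did not pass. The lower ones were Bsg, Gypc, Aqp1 and Dmtn, and 2 were lower when the day 5 or day 6 suspension library, or the day 5 adherent one, was left out. Rhag was at 3.43 ± 1.499 against 0.0336 ± 0.0582 CPM (SD, n = 3; log2 ratio 6.62 ± 0.96), and Rhd, of the same Rhesus complex, was at 5.21 ± 0.59 log2. Ermap, an erythroid adhesion protein, was at 5.14 ± 0.73 log2 and Sptb, the beta chain of spectrin, at 4.60 ± 0.52. These genes had less than 10 CPM in every library. The called genes with the highest CPM are found in many cell types, and went opposite ways, with Cd47, which shields cells from uptake by macrophages, at 0.84 ± 0.12 and Bsg (basigin) at -0.81 ± 0.12 log2. Gypc, a glycophorin also made outside red cells, was lower in suspension at -1.44 ± 0.14.

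**Figure D5:**
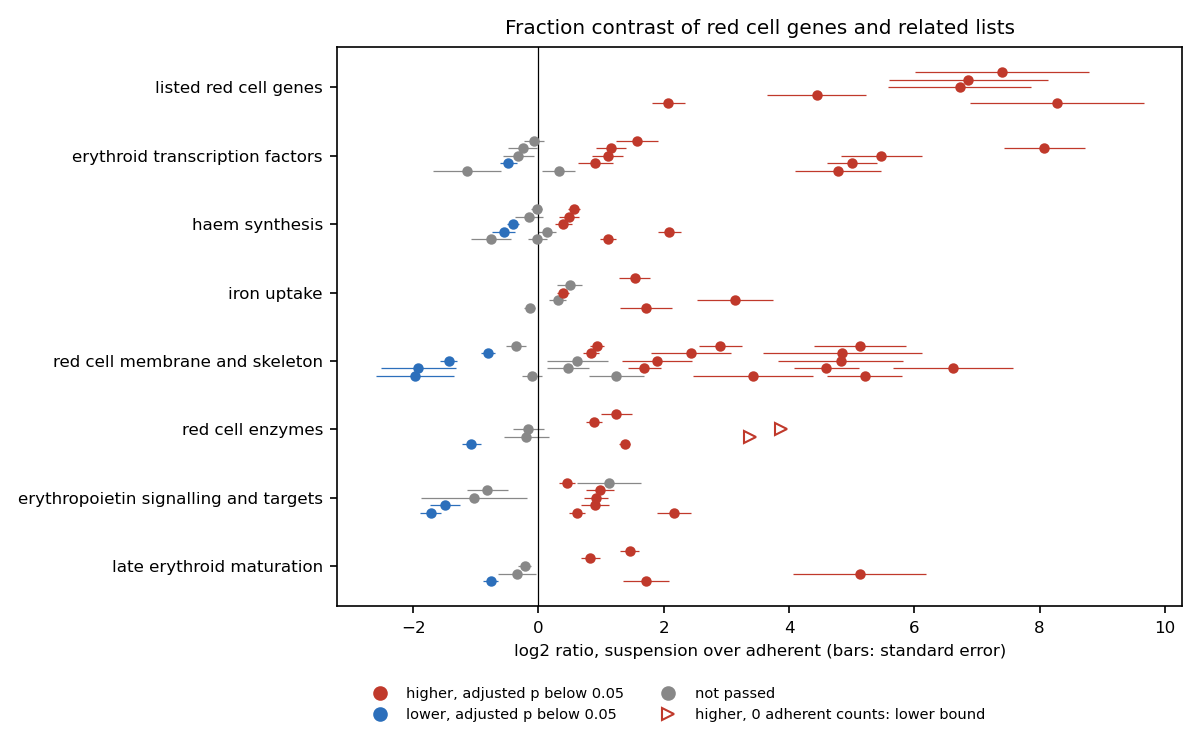
Log2 ratio of suspension over adherent, with standard errors, for each tested gene of the red cell list and of 7 related lists (red higher, blue lower, grey not passed), with open triangles as lower bounds for Car1 and Pklr, which had 0 adherent counts. Haem synthesis genes gather near 0, with a median of 0.06, and membrane and skeleton genes spread from -1.98 to 6.62.

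Among 8 red cell enzyme genes 5 were higher (Car1, Pklr, Gpx1, Blvrb and Cat) and 1 lower (median 1.06, also with genes at 0 set to their bound). Car1, the erythroid carbonic anhydrase, and Pklr, the pyruvate kinase of liver and red cells, had 102 and 145 counts in suspension and 0 in adherent libraries, and were at least 10.4-fold and 14.6-fold higher against the floor of 3 counts per library. Gpx1, a peroxidase of many cells, was at 1163 against 449 CPM, and Prdx2, a peroxidase abundant in red cells, was lower at -1.07 ± 0.15 log2. Of 11 tested genes of erythropoietin signalling and its targets 6 were higher and 2 lower (median 0.61), and Epo itself had 0 counts in all libraries. Jak2 and Socs2, the kinase bound to Epor and a feedback inhibitor, were lower at -1.72 ± 0.16 and -1.50 ± 0.24 log2. Lyn, a kinase of myeloid as well as erythroid cells, was at 2.16 ± 0.27, and Bcl2l1, a survival gene, at 0.61 ± 0.13, which became 0.29 and did not pass with reads on either strand (adjusted p = 0.176).

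Late maturation genes had 4 of 7 higher (Hemgn, Mkrn1, Bnip3l and Tent5c) and 1, Ube2o, lower (median 0.83). Hemgn, a nuclear protein of erythroid cells, was at 5.13 ± 1.06 log2, Mkrn1 at 1.46 ± 0.15 and Bnip3l, which removes mitochondria from maturing red cells, at 0.83 ± 0.15. Trim58, which helps expel the nucleus, was below the filter with 29 counts in suspension and 0 in adherent libraries. Many genes of these lists are also made by the myeloid cells whose markers were high in suspension, and how much of each difference came from which cells was not tested.

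The genes whose profile over the 6 libraries was most like that of Hbb-bs were sought among 13533 tested genes. Likeness was the root-mean-square difference between log2 CPM profiles, each centred on its mean, and a description over 6 libraries that share fraction and day. The nearest genes that are not on the red cell list were Ltf (1.41), Ly6g (1.63), Camp (1.68), Tspo2 (1.70) and Ngp (1.73). The fellow globin genes were nearer, with Hbb-bt at 0.82, Hba-a2 at 0.99 and Hba-a1 at 1.17, and Klf1 (2.31) and Epor (3.44) were farther. Ltf, Ly6g, Camp and Ngp are neutrophil genes, and none of them was lowest on day 5. Ltf had 355, 476 and 1190 CPM over the 3 days of suspension. Tspo2, an erythroid relative of the mitochondrial cholesterol-binding protein, was at 3.20, 2.48 and 4.49 CPM.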

How the data were processed

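The authors deposited 6 tables of raw read counts per gene with separate columns for either, sense and antisense strand. Per the submitters' processing notes, bcl2fastq, Cell Ranger and STARsolo were used on mm10. The versions, and the annotation used, were not given in the sources used here. Sense counts were used. GENCODE M21 (GRCm38) named 30934 of the 31053 identifiers, and of 28 shared symbols the identifier with most counts was kept. Summary lines, such as reads assigned to no gene (17.7% to 26.3% of mapped reads), stayed out of all totals. Promoter windows came from RefSeq (GRCm38.p6).

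Counts were filtered with filterByExpr, which left 14912 of 22019 genes with a count, scaled by TMM and tested with edgeR 4.0.16 (R 4.3.3, limma 3.58.1) by the quasi-likelihood test, Benjamini-Hochberg adjusted over all genes, threshold 0.05. The fraction contrast had 4 residual degrees of freedom, the slopes and their difference 2. Standard errors were taken as |log2| over the root of the F value. Depths gave the counting intervals: exact Poisson for levels, exact conditional for ratios, Wilson for shares, all 95%. The steps were tested on simulated data.

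The days serve as replicates, and the labels give both fractions a shared day. Deviations from the fraction means correlated across genes at 0.318, 0.0952 and 0.253 for the same day and at -0.285 to 0.0217 for different days. The members, lists and rule for named genes were chosen with earlier results of these data known. The rule named the listed genes, the 2 called genes of each pathway list with the highest CPM, the top gene of each cell type list and the 5 genes most like Hbb-bs. Alternatives were reads on either strand, DESeq2 1.42.0 (size factors and Wald test), library totals, no filter, at least 10 CPM in 3 libraries, the day as a block, a test against a 2-fold difference, beta globin alone for the share, and each library left out. Values of some listed genes are not reported here.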

Additional observations from a re-analysis of the deposited data

Results flagged for a closer look

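Reads on the antisense strand, which the comparisons used only in the alternative that counts reads on either strand, were above 3 counts in at least 1 library for 6 of the 8 genes. The highest antisense count in a library was 6 for Hba-a1 (suspension, day 6), 5 for Hba-a2 (suspension, day 4), 6 for Klf1 (suspension, day 4) and 6 for Epor (suspension, day 6), against 3357, 1391, 798 and 1309 sense counts in all libraries. Slc4a1 had 12 antisense counts in the suspension library of day 6 and 17 in all, against 87 sense counts. Alas2 had 36 in the adherent library of day 6 and 111 in all, more than its 58 sense counts, and Apex2 overlaps it on the opposite strand.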

How the results depend on the processing

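The 6 called genes kept their direction and call under every alternative that tested them. For the globin genes and Klf1, which passed the filter through their suspension libraries alone and so had to differ, this adds no support. With at least 10 CPM in 3 libraries, 1 red cell gene was tested and called, since the filter removes the others, and without a filter 7 of 8 were called. Over all genes 8467 were called, 5106 with that filter (2365 higher, 2741 lower) and 3759 in the test against a 2-fold difference (1308 and 2451). Library totals in place of TMM gave 2904 higher and 5555 lower (4044 and 4423 with TMM) and moved the median of all genes to -0.24. With the day as a block, the pairing of libraries by label changed no call among the 6 genes and, of the other genes named, those of Slc25a37, Pf4 and Sftpc alone, gave 4074 and 4343 over all genes, and left the globin share difference at 0.0121 percentage points with an exact sign-flip p of 0.25, the smallest that 3 pairs allow. Without 1 library each, 6 to 7 red cell genes and 6602 to 8658 genes in all were called, and the globin share difference was 0.00869 to 0.0168. The suspension slope ranged from -2.48 to 3.03 for Hba-a1, -3.03 to 3.38 for Hba-a2, -1.30 to 1.85 for Hbb-bt and -3.08 to 3.47 for Hbb-bs, negative without the suspension library of day 6. The cause was not tested. Called list genes in the 2-fold test numbered 4 of transcription factors, 1 of haem synthesis, 2 of iron uptake, 9 of membrane and skeleton, 3 of enzymes, 3 of erythropoietin signalling and 2 of late maturation, and with at least 10 CPM in 3 libraries 5 of transcription factors and 6 of membrane and skeleton. Megakaryocyte, mast cell and epithelial counts ranged over 0 to 4, 0 to 2 and 0 to 5 genes. Depth limits Alas2, Slc4a1 and the adherent globin values, of which no gene had more than 37 counts in a library.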

Other observations

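Among the listed genes not described above, Steap3, which reduces iron in endosomes, was higher in suspension at 1.72 log2, and Tent5c, a poly(A) polymerase, at 1.71. Of the top marker of each cell type list, S100a9 (neutrophils) was at 6.06 ± 0.84, Lyz2 (macrophages) at 2.38 ± 0.38, Cldn5 (endothelium) at -12.51 ± 0.79 and Col1a2 (fibroblasts) at -5.36 ± 0.69 log2. Pf4 (megakaryocytes), Cpa3 (mast cells) and Sftpc (alveolar epithelium) were at 0.60, 1.42 and -3.10 log2 and did not pass edgeR's test (adjusted p = 0.130, 0.451 and 0.0832). With the day as a block Pf4 was at 0.62 and Sftpc at -3.63 log2, and both passed (adjusted p = 0.0132 and 0.0467).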
